A study of Homo sapiens with 18 samples.

Results

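The ERα binding sites described here are those found in both ZR751shLucif and ZR751shMLL3 cells, and they number 918 of 37196 merged ERα regions. They were chosen by the deposited peak signal. The 10000 peaks with the highest signal in each of the 4 ERα libraries were merged wherever they overlapped by at least 1 bp, and a region was kept if it held a peak from at least 1 library of each cell line. Of the other regions, 165 had peaks in both libraries of 1 cell line only, and 36113 had a peak in a single library. These 2 classes are called one-line sites below. The ranks of the peaks are therefore a description, and tests were made only on H3K4me1, SP1, DNA sequence and RNA, which the selection did not use.

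ZR751 is an established ER+ luminal breast cancer cell line. The study asked how loss of MLL3 alters enhancer marking, ERα binding and transcription in these cells. ZR751shMLL3 cells carried a lentiviral hairpin that silences MLL3, and ZR751shLucif cells a control hairpin for luciferase. Both were stably transduced pools sorted for GFP, used at early passage, and grown in RPMI with fetal bovine serum and insulin. Each cell line had 2 libraries for ERα, 2 for H3K4me1, 2 for SP1 and 2 for RNA-seq. Only 1 hairpin was used against MLL3, so each cell line is a single transduced line. The paper checked the knockdown (KD) by qPCR in biological triplicate and reports a significant difference. The KD was not established by these RNA libraries. KMT2C, the gene for MLL3, had an FPKM of 2.34 and 6.77 in the ZR751shLucif libraries and 1.07 and 2.69 in the ZR751shMLL3 libraries, which overlap (adjusted p = 0.629, limma).

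ERα is a nuclear receptor that binds DNA as a dimer once it has bound estrogen. Its preferred sequence is the estrogen response element (ERE), a pair of inverted arms separated by 3 bases. Most ERα sites in luminal breast cancer cells lie in enhancers away from promoters, and pioneer factors such as FOXA1 open many of them. MLL3 is a histone methyltransferase that places monomethylation on lysine 4 of histone H3 (H3K4me1), a mark of enhancers. SP1 is a zinc finger factor that binds GC boxes at promoters and can recruit ERα to genes that lack an ERE.

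Sequences of leading shared sites are shown first, since the ERE set many of the shared sites apart. The ERE searched was GGTCANNNTGACC, a palindrome with 10 fixed bases in 13, where N is any base. The following stretches of the plus strand of hg19 are from 5 of the sites with the best ranks in all 4 libraries, and the capitals mark the best match to the ERE in each. The first 4 match all 10 fixed bases and the fifth has 1 mismatch.

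Intergenic, chr12:116828370-116828412: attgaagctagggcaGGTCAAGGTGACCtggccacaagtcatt
Intron of CTPS2, chrX:16680613-16680655: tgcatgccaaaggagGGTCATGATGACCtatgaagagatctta
Intron of TPM3, chr1:154163176-154163218: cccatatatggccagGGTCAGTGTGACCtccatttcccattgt
Promoter of LINC01879, chr18:74398964-74399006: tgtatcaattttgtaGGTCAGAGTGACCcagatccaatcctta
Intergenic, chr6:83279916-83279958: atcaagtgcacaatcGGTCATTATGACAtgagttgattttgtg

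The next stretches are from the best-ranked shared site of 6 estrogen-regulated genes, again with the best match in capitals. They run from no mismatch at SIAH2, through 1 mismatch at GREB1, RARA, IGFBP4 and PGR, to 2 mismatches at XBP1. The lead sites of PDZK1 and NRIP1, not shown, held no match closer than 3 mismatches.

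SIAH2, chr3:150474416-150474458: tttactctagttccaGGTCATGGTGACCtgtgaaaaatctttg
GREB1, chr2:11638840-11638882: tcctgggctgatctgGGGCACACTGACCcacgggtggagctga
RARA, chr17:38478729-38478771: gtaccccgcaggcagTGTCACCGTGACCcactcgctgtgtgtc
IGFBP4, chr17:38605105-38605147: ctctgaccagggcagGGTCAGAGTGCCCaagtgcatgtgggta
PGR, chr11:100904927-100904969: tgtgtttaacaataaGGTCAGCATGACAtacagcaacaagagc
XBP1, chr22:29209868-29209910: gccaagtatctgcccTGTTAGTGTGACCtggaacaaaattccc

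The 918 sites were unevenly supported by the libraries. A peak of ZR751shLucif replicate 2 was present at 825 of them and one of ZR751shMLL3 replicate 1 at 846. ZR751shLucif replicate 1 contributed to 324 sites and ZR751shMLL3 replicate 2 to 333. The largest class, 441 sites (48.0%), had peaks in ZR751shLucif replicate 2 and ZR751shMLL3 replicate 1 only. Peaks in all 4 libraries were found at 150 sites (16.3%), in 3 libraries at 192 and in 2 libraries at 576. Without ZR751shLucif replicate 2 the count of shared sites was 323, and without ZR751shMLL3 replicate 1 it was 333.

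The 2 libraries with the most shared sites were those with fewest peaks at the authors' false discovery rate (FDR) of 0.01. In the 10000 top peaks, 3797 of ZR751shLucif replicate 2 and 764 of ZR751shMLL3 replicate 1 passed it, against all 10000 in the other libraries. If only peaks at this FDR were merged, 501 sites were shared. The FDR values may not be comparable between the lists, so these counts do not rank the libraries by quality. By their names, ZR751shLucif replicate 2 came from another library series than the other 3 ERα libraries. The median peak width was 204 bp in the list of ZR751shLucif replicate 1, 476 bp in that of its replicate 2, 620 bp in ZR751shMLL3 replicate 1 and 310 bp in ZR751shMLL3 replicate 2, and wider peaks overlap more readily. With windows of equal size at the summits in place of whole peaks, the count of shared sites was 787 against 918. The paper's supplement counts the ERα peaks that passed its reproducibility threshold within each single library. These were more numerous in ZR751shLucif replicate 2 and ZR751shMLL3 replicate 1 than in the other replicate of each cell line. The supplement rates the ERα peak sets of both cell lines as borderline in reproducibility. The part of library quality in the counts of shared sites was not tested.

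The strongest peaks of every library were nearly all shared. Of the 100 top peaks, 87 in ZR751shLucif replicate 1, 100 in ZR751shLucif replicate 2, 100 in ZR751shMLL3 replicate 1 and 95 in ZR751shMLL3 replicate 2 lay in shared sites. Of the next 900 peaks, down to rank 1000, the share was 8.33%, 60.6%, 62.9% and 11.2% in the same order. Of the last 5000 peaks it was between 1.18% and 3.36%. Sharing therefore fell steeply beyond rank 100 in 2 of the libraries and beyond rank 1000 in the others.

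Sites seen in few libraries were not always absent elsewhere. The whole lists run far beyond the 10000 top peaks, and in these ZR751shLucif replicate 1 listed 493 of the 918 sites and ZR751shMLL3 replicate 2 listed 539. ZR751shLucif replicate 2 listed 847 and ZR751shMLL3 replicate 1 listed 869. The median rank of a shared site with a top peak was 1001.5, 624, 710.5 and 589 in ZR751shLucif replicates 1 and 2 and ZR751shMLL3 replicates 1 and 2. For the 150 sites of all 4 libraries the medians were 132.5, 85.5, 105.5 and 95.5.

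**Figure D1:**
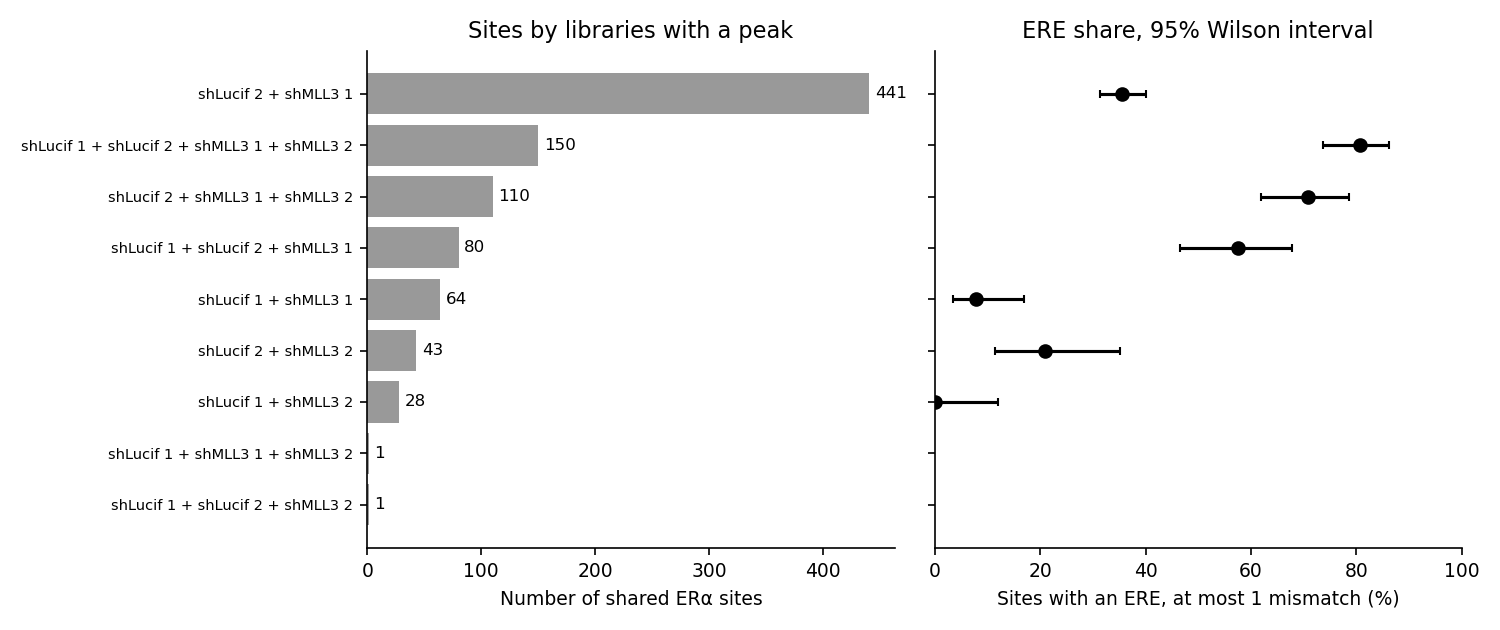
Left, number of shared ERα sites for each combination of ERα libraries with a peak among the 10000 top (shLucif 1 is ZR751shLucif replicate 1, and so on). Right, percent of those sites with an ERE of at most 1 mismatch within 100 bp of the centre, with 95% Wilson intervals, for combinations of more than 1 site. The share is 80.7% at the 150 sites of all 4 libraries and 35.6% at the 441 sites of the largest class.

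At the edge of the selection, the deciding rank of a site was taken as the worse of the best ranks reached in each cell line. The 3 sites just inside had deciding ranks of 9999, 9973 and 9920 and lay at chr5:60930381-60931195, chr1:246854955-246855574 and chr11:96532204-96533015. None of them held an ERE with fewer than 3 mismatches. The 3 regions just outside had deciding ranks of 10005, 10019 and 10021, and the region at chr5:99983262-99983737 held an ERE with 1 mismatch.

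The site with the strongest signal was the same in all 4 libraries. It was an intergenic region at chr12:116828118-116828730, with rank 1 in each, and its exact ERE is the first sequence shown above. The site in an intron of CTPS2, 12327 bp from the start of S100G, a calcium-binding protein gene, ranked 23, 9, 2 and 2 in ZR751shLucif replicates 1 and 2 and ZR751shMLL3 replicates 1 and 2. The site in an intron of TPM3, a tropomyosin gene, ranked 14, 13, 18 and 23 in the same order. The intergenic site on chromosome 6, 207016 bp from the start of TPBG, ranked 3, 4, 6 and 14. That in an intron of ATRNL1 on chromosome 10 ranked 9, 10, 11 and 15. The LINC01879 promoter site ranked 2, 28, 16 and 17.

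Another 4 of the 12 leading sites lay on chromosome 8. One was in an intron of PVT1, a long noncoding RNA gene, and ranked 7, 6, 5 and 9. A site 58010 bp from the start of TRPS1, a GATA-type luminal transcription factor gene, ranked 22, 24, 12 and 5. The intergenic sites whose closest genes were MAK16 and KCNU1, 239950 bp and 360704 bp away, ranked 12, 5, 3 and 3, and 27, 25, 25 and 18. The last pair were an exon of the noncoding gene LNCATV on chromosome 1, with ranks 8, 3, 28 and 22, and an intergenic site 334175 bp from the start of ATXN7L3B on chromosome 12, with ranks 17, 15, 8 and 32. Of these 12 sites, 7 held an exact ERE and the other 5 held one with 1 mismatch, 6 were intergenic, 4 intronic, 1 exonic and 1 at a promoter.

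An exact ERE lay within 100 bp of the centre at 151 of the 918 shared sites, which is 16.4% (95% Wilson interval 14.2 to 19.0). The share was 7.88% (4.66 to 13.01) at the 165 sites repeated in 1 cell line and 0.216% (0.173 to 0.269) at the 36113 sites of a single library. With 1 mismatch allowed the shares were 45.3%, 17.6% and 1.01%, and with 2 mismatches 61.2%, 29.7% and 5.71%. Windows of the same length 1000 bp to either side of the shared sites held an exact ERE in 0 of 1836 cases and an ERE with at most 1 mismatch in 0.763%. Intervals on shares of sites cover counting error only.

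The element also sat near the point of highest signal. In the 416 sites with at most 1 mismatch, the median distance from the centre of the ERE to the centre of the site was 25 bp. It was within 25 bp at 212 of them (51.0%) and within 50 bp at 342 (82.2%).

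**Figure D2:**
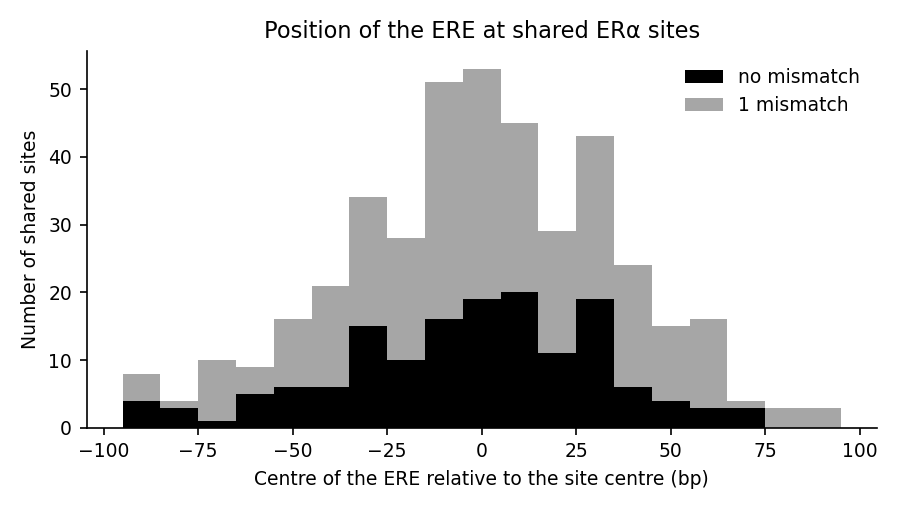
Number of shared ERα sites (vertical axis) by the distance in bp from the site centre to the centre of the closest best-matching ERE (horizontal axis), for the 151 sites with no mismatch and those with 1 mismatch, stacked, in bins of 10 bp. The counts are highest around the site centre, with a median distance of 25 bp over the 416 sites.

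The same contrast held in each ERα library when its own peak summits were used. In ZR751shLucif replicate 1, 20.1% of 324 peaks in shared sites and 0.0620% of 9676 peaks in one-line sites held an exact ERE. The shares were 13.6% of 1060 and 0.492% of 8940 in ZR751shLucif replicate 2, 12.3% of 1161 and 0.464% of 8839 in ZR751shMLL3 replicate 1, and 25.5% of 345 and 0.145% of 9655 in ZR751shMLL3 replicate 2. The mean was 17.9% ± 6.12 (SD, n = 4 libraries) in shared sites, and 0.291% ± 0.219 (SD, n = 4) in one-line sites. The difference of 17.6 percentage points had p = 0.13 in a two-sided exact sign-flip permutation test, the smallest p that 4 libraries allow, and it was positive in 4 of 4 libraries. The libraries overlap at these sites by construction and are not independent for this comparison.

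Peaks of similar rank in shared and one-line sites differed too, though most one-line peaks were of a single library. Among the 4000 peaks beyond rank 1000, down to rank 5000, an ERE with at most 1 mismatch was present at 43.7% of 87 shared-site peaks and 0.562% of 3913 one-line peaks in ZR751shLucif replicate 1. In ZR751shMLL3 replicate 2 the shares were 48.9% of 90 and 0.460% of 3910. In ZR751shLucif replicate 2 they were 24.6% of 280 and 2.23% of 3720, and in ZR751shMLL3 replicate 1 18.3% of 327 and 1.36% of 3673. Among the 900 peaks that follow the top 100, one-line peaks of these last 2 libraries held the element more often, at 23.7% of 355 and 13.8% of 334.

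**Figure D3:**
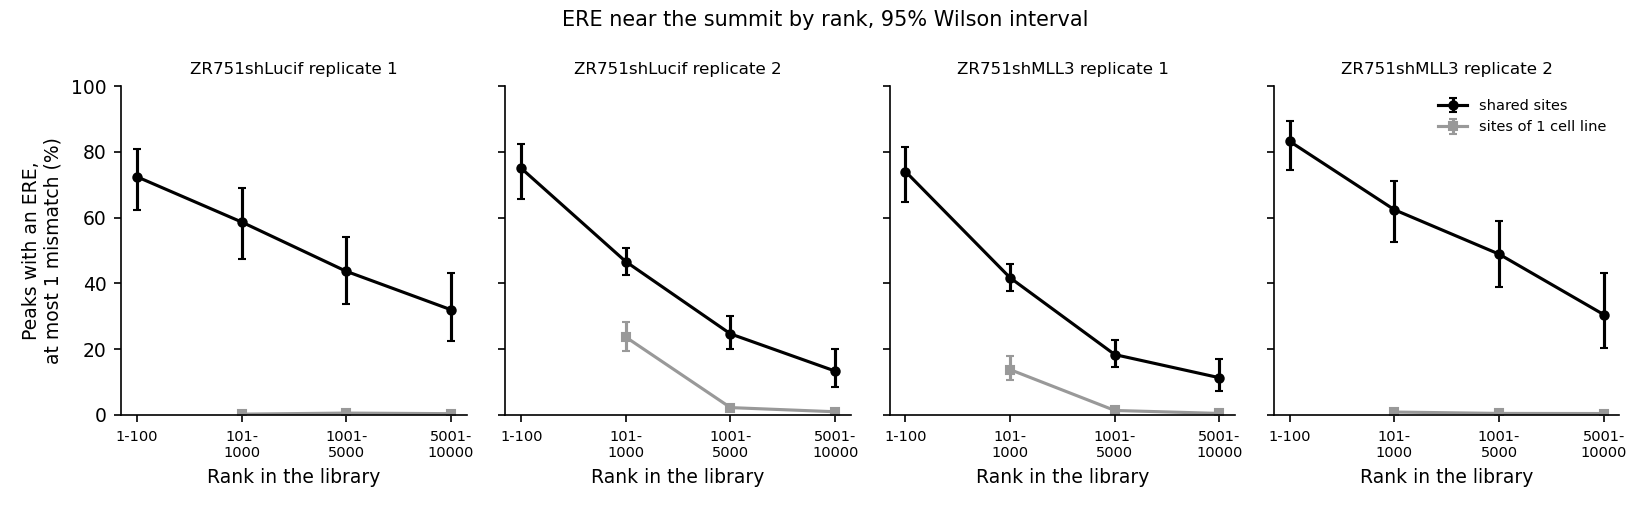
Percent of ERα peaks with an ERE of at most 1 mismatch within 100 bp of the summit (vertical axis) by rank of the peak (horizontal axis) in each ERα library, for peaks in shared sites (black) and in sites of 1 cell line (grey), with 95% Wilson intervals. Bands with fewer than 20 peaks are left out. Shared-site peaks lie above one-line peaks in every band drawn.

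Among the shared sites, those found in more libraries held an ERE more often. An exact ERE was present at 35.3% (28.1 to 43.3) of the 150 sites of all 4 libraries, 22.9% (17.5 to 29.4) of the 192 sites of 3 libraries and 9.38% (7.26 to 12.03) of the 576 sites of 2 libraries. With at most 1 mismatch the shares were 80.7%, 64.6% and 29.7%. The pairs of libraries differed. The 441 sites of ZR751shLucif replicate 2 and ZR751shMLL3 replicate 1 had such an element in 35.6% (31.3 to 40.2), and the 43 sites of ZR751shLucif replicate 2 and ZR751shMLL3 replicate 2 in 20.9% (11.4 to 35.2). The 64 sites of ZR751shLucif replicate 1 and ZR751shMLL3 replicate 1 had one in 7.81% (3.38 to 17.0), and the 28 sites of ZR751shLucif replicate 1 and ZR751shMLL3 replicate 2 in 0 of 28 (interval up to 12.1). The last 2 pairs, both with ZR751shLucif replicate 1, had the lowest shares.

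The deciding rank ordered the sites in the same way. An ERE with at most 1 mismatch was present at 68.3% of the 400 sites with a deciding rank up to 1000, 46.2% of the next 182 up to rank 3000, 26.6% of 94 up to rank 5000, 17.9% of 117 up to rank 7500 and 10.4% (6.18 to 17.0) of the last 125. The last share was still above the 1.01% of the single-library sites.

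The other motifs differed less. A single arm of the ERE, AGGTCA, lay within 100 bp of 50.8% of shared sites and 10.7% of single-library sites, and an exact ERE preceded by A or followed by T contains one. The GC box GGGCGG was present at 3.70% and 1.03%, against 2.72% of the windows 1000 bp from the shared sites. The forkhead motif TGTTTAC, which FOXA1 binds, was present at 6.54% of shared sites, 3.99% of single-library sites and 3.21% of the flanking windows. The AP-1 motif TGANTCA was found at 7.19%, 6.69% and 7.14%, and the GATA motif AGATAA at 19.2%, 19.5% and 16.2%. All motifs were searched on both strands, and 32.4% of shared sites held neither AGGTCA nor an ERE with at most 2 mismatches. The median GC content within 100 bp of the centre was 41.8% at shared sites and 35.3% at single-library sites.

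Shared sites lay mostly away from promoters. The start of an annotated gene, noncoding genes included, was within 1000 bp of the centre at 45 sites (4.90%), against 1.99% of single-library sites and 2.42% of the sites repeated in 1 cell line. Introns held 509 shared sites (55.4%), exons 49 (5.34%) and intergenic sequence 315 (34.3%), and the single-library sites were split alike, at 57.0%, 4.46% and 36.6%. The 150 sites of all 4 libraries had 3 promoter sites and 15 exonic ones. Among genes with an entry in the RNA table, the closest start was at a median of 69383 bp for shared sites and 94730 bp for single-library sites. Chromosome 1 held 169 shared sites (18.4%), 2.24 times its share of the genome length, and 15.2% of the one-line sites.

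H3K4me1 was much more frequent at shared sites than at one-line sites in both cell lines. A peak among the 50000 top H3K4me1 peaks reached within 500 bp of the centre at 30.4% of the shared sites in ZR751shLucif replicate 1, 29.5% in its replicate 2, 28.4% in ZR751shMLL3 replicate 1 and 31.9% in its replicate 2. At one-line sites the shares were 6.95%, 6.48%, 6.22% and 6.67% in the same order. At the 165 of these repeated in 1 cell line they were 18.8%, 13.9%, 17.6% and 16.4%. At positions 50000 bp from the shared sites they were 4.25%, 5.12%, 4.90% and 5.77%. Over the 4 H3K4me1 libraries the mean was 30.1% ± 1.47 (SD, n = 4) at shared sites, and 6.58% ± 0.311 (SD, n = 4) at one-line sites. The difference of 23.5 percentage points was positive in 4 of 4 libraries, with p = 0.13 in a two-sided exact sign-flip permutation test, the smallest possible.

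Over all shared sites the cell lines did not differ beyond their spread in the share reached by the 50000 top H3K4me1 peaks. Each library gave the same number of peaks, so shares under this cut cannot show a drop common to the whole genome. The paper reports such a drop after KD, with most regions marked in both cell lines higher in the control. Whether the shared sites took part in it was not tested by these shares. The mean share with H3K4me1 was 30.0% ± 0.616 (SD, n = 2) in ZR751shLucif and 30.2% ± 2.46 (SD, n = 2) in ZR751shMLL3. The difference of 0.218 percentage points had p = 1 in a two-sided exact permutation test, in which 2 libraries against 2 cannot go below 0.33. Other thresholds turned the sign of this difference. It was -3.81 points with the 100000 top H3K4me1 peaks, -5.45 with peaks within 100 bp of the centre, and -25.4 with all peaks at the authors' FDR of 0.01, with p of 0.67, 0.33 and 0.33 in the same exact test. The number of H3K4me1 peaks at that FDR ran from 28599 in ZR751shMLL3 replicate 1 to 192201 in ZR751shLucif replicate 2. The last setting therefore compares lists of unequal length. Whether these lengths reflect the amount of the mark or the quality of the libraries was not tested.

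At the strongest class of shared sites the KD libraries were lower. Of the 150 sites of all 4 ERα libraries, H3K4me1 was present at 70 in ZR751shLucif replicate 1, 74 in its replicate 2, 52 in ZR751shMLL3 replicate 1 and 62 in its replicate 2. The cell lines did not overlap. The means were 48.0% ± 1.89 and 38.0% ± 4.71 (SD, n = 2 each), a difference of -10.0 points with p = 0.33 in the exact permutation test, the smallest possible. The difference was negative under all 9 alternatives tried, from -40.0 to -6.00 points, the first at the FDR of 0.01, where the lists are of unequal length. Leaving out 1 library could not turn the sign, since the cell lines did not overlap. The other settings reuse the same libraries, and all were added after the data were seen. At the 192 sites of 3 libraries the means were 35.4% ± 0.737 and 38.5% ± 1.47 (SD, n = 2 each), where the direction was the opposite without overlap, and at the 576 sites of 2 libraries 23.4% ± 1.23 and 25.3% ± 2.21 (SD, n = 2 each). Whether the classes differed in their response was not tested.

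The ranks of H3K4me1 peaks gave a view without a cut at the 50000 top peaks. A site unlisted in a library counted as ranked last there, and the whole lists end near 300000 peaks. Ranks within a list cannot show a loss across the genome either. For each ERα site with an H3K4me1 peak in any whole list, the better-ranked cell line was taken as the one whose 2 libraries both ranked it above both libraries of the other. Over all merged ERα sites this favoured ZR751shLucif at 12.9% of 16317 sites and ZR751shMLL3 at 10.0%. Over the 778 shared sites it favoured ZR751shLucif at 146 (18.8%) and ZR751shMLL3 at 110 (14.1%). At the 147 sites of all 4 ERα libraries with a listed peak it favoured ZR751shLucif at 43 (29.3%) and ZR751shMLL3 at 11 (7.48%). With only H3K4me1 summits within 500 bp counted, the last pair was 30 and 12 of 125 sites, and over all merged sites the shares were 10.99% and 9.32%. Over the shared sites this setting favoured ZR751shLucif at 136 and ZR751shMLL3 at 75 of 691. The H3K4me1 list of ZR751shMLL3 replicate 1 had the narrowest peaks, 576 bp against 840 to 964 bp in the other 3, and its part in these counts was not tested.

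**Figure D4:**
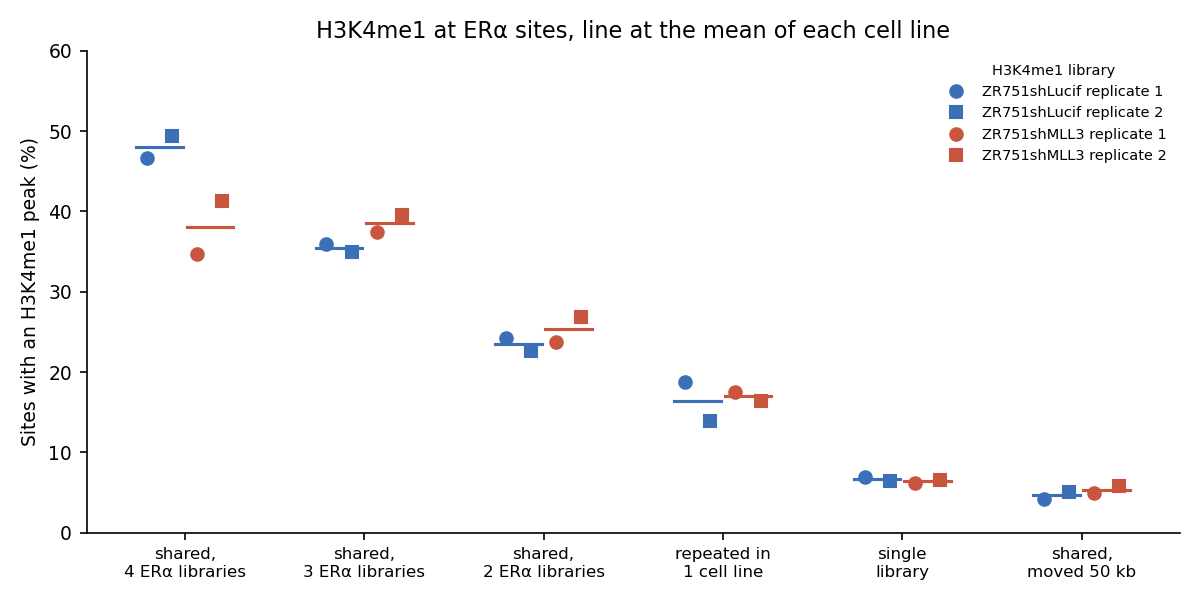
Percent of ERα sites with 1 of the 50000 top H3K4me1 peaks within 500 bp of the centre (vertical axis) in each H3K4me1 library, for classes of ERα sites and for positions 50 kb from the shared sites (horizontal axis). Points are libraries and horizontal lines the mean of each cell line. The shares fall from 34.7 to 49.3% at sites of 4 ERα libraries to 4.25 to 5.77% at the moved positions, and the cell lines are apart without overlap at the sites of 4 and of 3 libraries, in opposite directions.

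Sites marked in both libraries of 1 cell line and neither of the other were a small share. H3K4me1 was present in both ZR751shLucif libraries and neither ZR751shMLL3 library at 20 shared sites (2.18%), and in both ZR751shMLL3 libraries and neither ZR751shLucif library at 31 (3.38%). The same shares were 0.897% and 0.584% of single-library sites, and 1.82% each of the sites repeated in 1 cell line. All 4 libraries had it at 70 sites (7.63%) and none at 392 (42.7%). Libraries of the same cell line also differed in the sites they marked. In ZR751shLucif, 279 sites were marked in replicate 1, 271 in replicate 2 and 158 in both, and in ZR751shMLL3 261, 293 and 145.

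Sites with an ERE carried the mark more often than the other shared sites. The shares at the 416 sites with at most 1 mismatch were 38.0%, 34.9%, 33.9% and 38.5% in ZR751shLucif replicates 1 and 2 and ZR751shMLL3 replicates 1 and 2. At the remaining 502 they were 24.1%, 25.1%, 23.9% and 26.5%. The difference of 11.4 points was positive in 4 of 4 libraries (p = 0.13, two-sided exact sign-flip permutation test, the smallest possible). Sites with the element also ranked higher, as given above, and the part of rank was not tested.

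Among the 10000 top SP1 peaks, few lay at shared sites except in 1 library. A peak among the 10000 top SP1 peaks reached within 100 bp of the centre at 8 of the 918 sites in ZR751shLucif replicate 1, 9 in its replicate 2, 9 in ZR751shMLL3 replicate 1 and 45 in ZR751shMLL3 replicate 2. These are 0.871%, 0.980%, 0.980% and 4.90%, against 0.689%, 0.289%, 0.471% and 0.582% of one-line sites. The cell line means were 0.926% ± 0.0770 and 2.94% ± 2.77 (SD, n = 2 each), a difference of 2.02 points with p = 0.67 in the exact permutation test. Without ZR751shMLL3 replicate 2 the difference was 0.0545 points, so at this threshold it rested on that library. With the 50000 top SP1 peaks the difference was 4.96 points and the cell lines did not overlap (p = 0.33 in the exact permutation test, the smallest possible). Of its 45 sites, 16 were at promoters, and 16 belonged to the 150 sites of all 4 ERα libraries. An ERE with at most 1 mismatch was present at 42.2% of the 45 and 45.5% of the other shared sites. No SP1 peak of either ZR751shLucif list reached an FDR of 0.01, against 204178 of 209985 in ZR751shMLL3 replicate 1 and 12065 of 300000 in its replicate 2. The FDR values may not be comparable between these lists. In the paper's supplement, ZR751shMLL3 replicate 2 had far more SP1 peaks passing the reproducibility threshold within a single library than each other SP1 library. The part of library quality in the 45 sites was not tested.

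The genes near the shared sites included many known estrogen targets. Within 100 kb of the gene start, here the upstream end of the annotated gene, 15 of 30 classical estrogen-induced genes had a shared site, which is 50.0%. The share was 6.32% over all 21235 genes of the RNA table with a position and 7.25% over the 11462 of them with a mean FPKM above 1. Of 16 genes for luminal transcription factors 4 had one (ESR1, GATA3, GRHL2 and TRPS1), of 8 luminal markers 4 (ESR1, GATA3, KRT8 and KRT18, the last 2 sharing a site), of 16 ERα coactivators and corepressors 1 (NRIP1), and of 7 placed basal, stromal and immune markers 1 (PTPRC). These lists were drawn up with earlier results of these data known and the counts are descriptions.

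The best sites of several classical targets were among the 100 top peaks of all 4 libraries. The RARA site, in an intron of the retinoic acid receptor gene 13286 bp from its start, ranked 6, 18, 7 and 37 in ZR751shLucif replicates 1 and 2 and ZR751shMLL3 replicates 1 and 2. The site 32166 bp from CTSD, which encodes a lysosomal protease, ranked 5, 8, 19 and 51. The first of 4 sites at GREB1, a cofactor of ERα and one of its most responsive targets, ranked 11, 64, 20 and 35. The lead site of SIAH2, a ubiquitin ligase gene with 3 shared sites, ranked 37, 46, 36 and 25. The sites of ADCY9, SUSD3 and IGFBP4 were also found in all 4 libraries.

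Some targets were seen in fewer libraries. The site in an exon of PGR, the progesterone receptor gene, ranked 102, 135 and 74 in ZR751shLucif replicate 2 and ZR751shMLL3 replicates 1 and 2, and 20734 in ZR751shLucif replicate 1. The intronic site of MYB, a proto-oncogene, ranked 178, 174 and 270 in the same 3 libraries and was not listed in ZR751shLucif replicate 1. The intronic site of ESR1, the gene of ERα itself, lay 1561 bp from the gene start and ranked 228 and 517 in ZR751shLucif replicate 2 and ZR751shMLL3 replicate 1, and 94532 and 33046 in the others. The sites of NRIP1, CA12 and PDZK1 were also in 2 libraries. Of the 15 lead sites, 9 were in all 4 libraries, 3 in 3 and 3 in 2. An exact ERE was present at 1, an ERE with 1 mismatch at 8, with 2 mismatches at 4 and none closer than 3 mismatches at 2 (PDZK1 and NRIP1). TFF1, a secreted trefoil peptide gene often used as a marker of ERα activity, had no shared site within 100 kb, and its FPKM was 998 and 1406 in the controls and 1029 and 226 after KD.

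These sites were variably marked. Among the 15 lead sites, 4, 5, 4 and 7 had one of the 50000 top H3K4me1 peaks in ZR751shLucif replicates 1 and 2 and ZR751shMLL3 replicates 1 and 2. The PGR site was marked in all 4 libraries, with H3K4me1 ranks of 3747, 25872, 29630 and 29875 in that order. The GREB1 site was marked in none, with ranks of 102760 and 170039 in the first and last library and no listed peak in the other 2.

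Genes near shared sites were called after KD about as often as all genes. The closest gene start within 100 kb gave 510 genes for 539 of the 918 sites, and 278 of these genes had a mean log2(FPKM + 0.5) above 1. None passed an adjusted p of 0.05 (limma, Benjamini-Hochberg over 11134 genes), where 0.00898% of all genes tested did. At an unadjusted p under 0.05, 10 of the 278 were higher in ZR751shMLL3 (3.67% of all genes tested) and 14 lower (4.31%). Both KD libraries were above both controls for 42 genes (15.1%, against 17.6% of all genes tested) and below them for 73 (26.3%, against 25.3%). In bulk RNA, fewer cells that express a gene and less RNA per cell cannot be told apart. The median log2 fold change was -0.13 near shared sites and -0.10 over all genes tested. The log2 FPKM values correlated at 0.900 between the ZR751shLucif libraries and at 0.969 between the ZR751shMLL3 libraries, a description across genes, which are not independent replicates. Without ZR751shLucif replicate 1 the medians were -0.01 near shared sites and 0.02 over all genes tested. Without ZR751shLucif replicate 2, 36 of 278 genes passed the adjusted p, against 11.9% of all genes tested.

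An FPKM above 1 was more frequent among these genes than over all entries. It was reached by 57.3%, 56.3%, 57.1% and 56.5% of the 510 genes in ZR751shLucif replicates 1 and 2 and ZR751shMLL3 replicates 1 and 2, against 50.2%, 50.0%, 49.7% and 50.0% of all 23500 entries. The entries include repeated symbols and entries without a position, so the comparison is not like for like. Of the 21235 genes with a position, 11462 had a mean FPKM above 1. Of the 510 genes, 484 had 1 such site and 3 had 3 or more, among them XBP1, the transcription factor of the secretory pathway, with an FPKM of 1302 and 1507 in the controls and 1207 and 1112 after KD. S100G, with 3 sites near its start, one of them the CTPS2 site shown above, was listed at 0 in all 4 libraries.

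Among the 15 classical targets with a shared site, none passed the adjusted p, 5 (33.3%) were lower in both KD libraries than in both controls, against 25.3% of all genes tested, and 2 (13.3%) were higher, against 17.6%. PDZK1, a scaffold protein gene, had an FPKM of 13.1 and 5.10 in the control libraries and 1.59 and 2.18 in the KD libraries. The fitted log2 difference was -1.88 ± 0.45 (SE) with an adjusted p of 0.475 in limma. MYB had 8.82 and 9.51 against 4.32 and 4.84, and PGR 17.3 and 13.6 against 10.8 and 9.33. SERPINA1, a protease inhibitor gene, had 30.1 and 27.2 against 16.2 and 10.7, and XBP1 was the fifth gene without overlap. EGR3, an immediate early transcription factor gene, was at 7.15 and 2.27 in the controls and 16.7 and 24.5 after KD, a fitted log2 difference of 2.17 ± 0.51 (SE) with an adjusted p of 0.458 in limma. ADCY9, an adenylate cyclase gene, had 8.14 and 8.61 against 12.5 and 12.5. GREB1 had 42.0 and 43.3 against 56.4 and 35.3, and its cell lines overlapped, as did those of RARA, CTSD, SIAH2 and IGFBP4. ESR1 had 11.2 and 14.2 against 12.1 and 10.8.

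**Figure D5:**
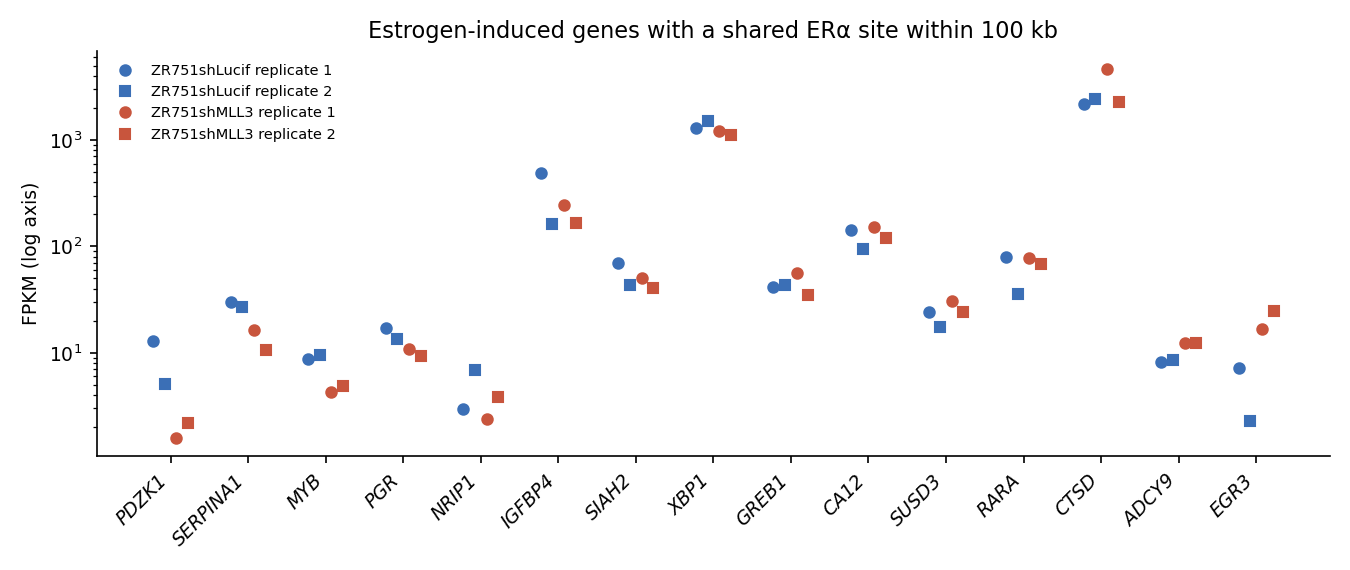
FPKM (vertical axis, log scale) of the 15 classical estrogen-induced genes with a shared ERα site within 100 kb, ordered by log2 fold change, in the 4 RNA-seq libraries. The cell lines do not overlap at PDZK1, SERPINA1, MYB, PGR and XBP1, where ZR751shMLL3 is lower, and at ADCY9 and EGR3, where it is higher.

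The 4 largest differences in each direction without overlap, among genes closest to a shared site, included EGR3 and 7 genes outside the list of classical targets, and none passed the adjusted p. MARK1, a microtubule affinity-regulating kinase gene, had an FPKM of 22.4 and 14.9 in the controls and 4.76 and 5.74 after KD (fitted log2 difference -1.71, limma adjusted p = 0.336). CYP2B7P, a cytochrome P450 pseudogene whose reads may be split with its parent gene, had 82.1 and 45.3 against 23.5 and 16.6, and lay 2900 bp from a site that ranked 70, 2, 4 and 19 in the ERα libraries. SERPINA6, the gene of corticosteroid-binding globulin, had 2.88 and 3.19 against 1.35 and 0.271. Its site was that of SERPINA1. HIF1A, the hypoxia-inducible factor gene, had 94.6 and 48.2 against 29.3 and 32.5. Beside EGR3, the potassium channel gene KCNK2 had 3.23 and 2.28 against 6.12 and 12.1, AMZ1 3.36 and 6.88 against 15.4 and 10.2, and BCAR1, an adaptor protein gene, 29.1 and 19.3 against 44.7 and 58.7. The sites of MARK1, HIF1A, KCNK2 and BCAR1 had a top peak in 2 ERα libraries each. Those of AMZ1 and EGR3 had one in 3, and those of CYP2B7P and SERPINA6 in 4. The MARK1 site ranked 9510 in ZR751shLucif replicate 2 and 7257 in ZR751shMLL3 replicate 1, with 5 mismatches to the ERE. In the same libraries the KCNK2 site ranked 2455 and 8126, with 4 mismatches.

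The luminal identity of both cell lines was seen in the RNA. The 8 luminal markers were above an FPKM of 1 in all 4 libraries, with KRT8 at 4573 and 1652 in the controls and 4114 and 3805 after KD, and ESR1 the lowest of the 8. Of the 8 basal, stromal and immune markers, ACTA2 and COL1A1 were above 1 in every library, at 1.66 to 3.71 and 13.1 to 17.8. KRT5, KRT14, TP63, PDGFRB, PECAM1 and PTPRC were at 0.101 or below.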

How the data were processed

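Per the labels and the methods of the study, the authors aligned ChIP-seq reads to hg19 with BWA (0.7.5a-r405 in the submitters' processing notes), removed duplicates, and called peaks with SPP library by library, with the matching input as control. The labels state fixation in 7% formaldehyde and the methods another concentration. The deposited lists give the authors' signal per peak, used to rank peaks within a list, and the −log10 of their FDR (q-value). For RNA-seq the authors deposited FPKM (Cufflinks and Cuffnorm 2.2.1) of 23500 entries, of which 21235 symbols had a position. Read depth behind single peaks and genes is unknown.

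Sites were merged, annotated (GENCODE 44 lifted to GRCh37, which is hg19) and searched for motifs in Python 3.11.15 with pandas 2.3.3, scipy 1.17.1 and pysam 0.24.0. The site centre was the summit of its best-ranked peak. Expression, on the log2(FPKM + 0.5) scale, was fitted in R 4.3.3 with limma 3.58.1 for entries whose mean was above 1. Exact permutation tests over libraries compared shares of sites, and the steps were tested on simulated data. Sites named were the 12 found in all 4 libraries with the smallest worst rank, and the best-ranked shared site of each listed gene. Genes named were those closest to the 12 sites, listed genes, and the 4 largest differences each way without overlap. The sites and gene lists were chosen with earlier results of these data known. A first set of 31 alternatives was tried, and 5 more were added after the data were seen. Input libraries were not analysed here. Replicates came from 1 transduced line each, so p-values measure only the spread between these libraries.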

Additional observations from a re-analysis of the deposited data

How the results depend on the processing

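The number of shared sites was 1583 with the 20000 top peaks, and leaving out 1 ERα library gave 323 to 846. With only peaks at an FDR of 0.01 it was 501. The share at promoters was 14.1% when promoters reached 5 kb, and 2.70 to 5.33% with 1 ERα library left out, the lowest without ZR751shMLL3 replicate 1. The H3K4me1 difference between the cell lines over all shared sites reversed to -3.81 points with the 100000 top peaks, -25.4 at the authors' FDR, -5.45 with peaks within 100 bp of the centre and -1.31 with summits within 500 bp, and ran from -1.53 to 1.961 with 1 library left out. Added after the data were seen were the settings with tied peaks, peaks at an FDR of 0.01 and H3K4me1 summits, and all alternatives for sites of all 4 ERα libraries. The differences between shared and one-line sites in H3K4me1 and in the ERE kept their direction under all alternatives, from 11.2 to 32.6 and from 14.1 to 44.8 points. Leaving out 1 library could not turn these signs, since both differences were positive in every library. The SP1 difference between the cell lines stayed positive, at 4.96 points with the 50000 top peaks and 0.0545 to 3.98 with 1 library left out. The median log2 fold change near shared sites was -0.0053 with no filter on low values, and -0.19 to -0.012 with 1 RNA-seq library left out. The number of genes near shared sites past the adjusted p was 0 in limma and 0 to 36 with 1 library left out. With the replicate number as a block in limma it was 0, with the same median of -0.13, and the block moved the count over all genes from 1 to 33. The deviations of same-numbered RNA-seq libraries correlated at 0.0374, so the numbers were not taken to pair them. With 2 libraries a cell line, no permutation test here could pass 0.05.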
